A study of Mus musculus with 6 samples.

Results

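CXC chemokines are small secreted proteins that guide leukocytes, and 8 of them were followed in cultured mouse macrophages that had met cartilage debris. The genes were taken by symbol from the deposited transcript tables, 8 of 24394 gene symbols in all. Cxcl1, Cxcl2 and Cxcl3 attract neutrophils, Cxcl9 and Cxcl10 are induced by interferon, and Cxcl12, Cxcl14 and Cxcl16 were grouped as constitutively expressed. The comparison asked which genes macrophages express differently after contact with cartilage fragments, as happens in a worn joint. Bone marrow-derived macrophages (BMMs) of C57BL/6 mice at postnatal day 28 had grown for 7 days in medium with macrophage colony-stimulating factor (50 ng/ml). The 3 control cultures received nothing more, and the 3 stimulated cultures received cartilage fragments of C57BL/6 mice at 5 per macrophage for 24 h. Both groups were wild type and had the same growth factor. BMMs differentiate in a dish and are not the resident macrophages of the joint lining. The labels do not say whether the 3 cultures of a group came from separate animals, so p-values measure the spread between these cultures, which may be technical.

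Cxcl1, Cxcl2 and Cxcl3 bind the receptor Cxcr2 on neutrophils, and macrophages are known to transcribe them within hours of a Toll-like receptor or tumor necrosis factor signal through the factor NF-κB. Cxcl9 and Cxcl10 bind Cxcr3 on activated T cells and are known targets of interferon signaling, and Cxcl10 also responds to NF-κB. Cxcl12 binds Cxcr4 and is made mostly by stromal cells. Cxcl14 is typical of epithelium, and Cxcl16 is made by macrophages as a membrane protein that also takes up oxidized lipoprotein and is released by proteases.

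On mm10, the build of the files, Cxcl3 (NM_203320) lies at chr5:90786101-90788093, Cxcl1 (NM_008176) at chr5:90891245-90893115 and Cxcl2 (NM_009140) at chr5:90903899-90905938, all on the plus strand with 4 exons each. Cxcl9 (NM_008599, chr5:92321331-92328079) and Cxcl10 (NM_021274, chr5:92346639-92348889) lie near each other on the minus strand of the same chromosome, also with 4 exons each. Cxcl12 lies at chr6:117168535-117181368 on the plus strand, and the files list 3 transcripts of it with 3 or 4 exons. Cxcl14 (NM_019568, 4 exons) lies at chr13:56288643-56296551 and Cxcl16 (NM_023158, 5 exons) at chr11:70454234-70459984, both on the minus strand.

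The 250 bases before the transcript start, from RefSeq on GRCm38.p6, were available for 7 of the 8 genes and were searched on both strands. The missing gene was Cxcl16, so nothing is known here of motifs before its start. The motifs were the core of an NF-κB site, GGGAATTTC, its looser form GGGANNTTC, of which the first is a special case, and the core of an interferon-response element, GAAANNGAA. The neutrophil-attracting and the interferon-induced genes are shown, because these are the genes on which NF-κB and interferon signaling are known to act. Motif matches are in capitals, and each sequence is written 5′ to 3′ on the strand of its gene, at chr5:90890995-90891244 (Cxcl1), chr5:90903649-90903898 (Cxcl2), chr5:90785851-90786100 (Cxcl3), chr5:92328080-92328329 (Cxcl9) and chr5:92348890-92349139 (Cxcl10).
Cxcl1: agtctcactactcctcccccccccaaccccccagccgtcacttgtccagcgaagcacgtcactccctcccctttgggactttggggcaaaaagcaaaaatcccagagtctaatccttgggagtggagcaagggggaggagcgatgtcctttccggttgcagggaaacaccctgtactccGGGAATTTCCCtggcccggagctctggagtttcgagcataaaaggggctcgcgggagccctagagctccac
Cxcl2: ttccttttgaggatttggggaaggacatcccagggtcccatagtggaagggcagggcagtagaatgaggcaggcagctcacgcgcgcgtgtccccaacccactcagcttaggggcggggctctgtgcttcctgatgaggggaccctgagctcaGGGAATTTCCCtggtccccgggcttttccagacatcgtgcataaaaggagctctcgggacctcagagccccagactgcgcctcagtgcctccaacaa
Cxcl3: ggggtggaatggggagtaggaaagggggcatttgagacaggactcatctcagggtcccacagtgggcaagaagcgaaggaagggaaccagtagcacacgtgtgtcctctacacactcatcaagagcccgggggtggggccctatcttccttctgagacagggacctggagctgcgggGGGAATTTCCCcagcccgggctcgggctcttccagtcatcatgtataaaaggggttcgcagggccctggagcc
Cxcl9: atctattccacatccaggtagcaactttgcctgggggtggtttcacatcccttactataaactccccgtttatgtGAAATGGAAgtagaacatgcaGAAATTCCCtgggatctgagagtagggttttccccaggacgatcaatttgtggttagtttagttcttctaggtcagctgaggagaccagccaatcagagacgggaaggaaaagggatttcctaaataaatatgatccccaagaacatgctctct
Cxcl10: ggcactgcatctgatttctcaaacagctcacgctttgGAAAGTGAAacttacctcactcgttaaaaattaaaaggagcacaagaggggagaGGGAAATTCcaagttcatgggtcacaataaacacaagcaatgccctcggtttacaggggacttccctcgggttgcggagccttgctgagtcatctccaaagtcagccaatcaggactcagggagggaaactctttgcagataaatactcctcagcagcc

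The strict NF-κB core was found in Cxcl1 (71 to 63 bases before the start), Cxcl2 (97 to 89) and Cxcl3 (73 to 65) on the strand of the gene, and in Cxcl9 (154 to 146) on the other strand. In the 3 neutrophil-attracting genes a match to the looser form on the other strand overlapped it, shifted by 2 bases, so that the capitals run over both. Cxcl10 held the looser form, 159 to 151 bases before the start. Of 32851 mouse promoters of the same length, 0.234% held the strict core and 3.23% the looser form. The interferon-response core stood 213 to 205 bases before the start of Cxcl10, 175 to 167 before that of Cxcl9 and 172 to 164 before that of Cxcl14, and 7.13% of promoters held it. Cxcl12 was searched and held none of these motifs. No factor binding was measured in these cultures, and a match describes the letters only.

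Abundance is given as FPKM, which corrects fragments for transcript length and for library depth and so allows levels of genes to be compared. The deposited values rested on between 742790 and 776322 fragments in the control cultures and between 699192 and 754093 in the stimulated ones, as estimated from the deposited coverage. This is far below the read number that the methods give, the reason was not tested, and limits of depth stated here hold for the deposited values. Of 7 macrophage markers all were detected in every library. Adgre1 (F4/80) was at 349.8 to 373.2 FPKM in control and at 524.2 to 566.2 FPKM in stimulated cultures (log2 fold change 0.59, adjusted p = 0.00822 in limma, past the threshold in 12 of 17 alternatives). The call was lost without stimulated culture 1 (adjusted p = 0.0734 in limma) or 2 (0.0518), with a replicate block (0.0541), without trend and robust moderation (0.332) and on reference transcripts only (0.62). Itgam was at 346.0 to 362.0 FPKM in control and at 403.5 to 436.8 FPKM in stimulated cultures, also without overlap. The other macrophage markers overlapped between the groups. Their log2 fold changes were 0.01 (Csf1r), 0.11 (Cd68), 0.13 (Mertk), 0.56 (Fcgr1) and -0.11 (Lyz2). The part of Adgre1 and Itgam in the chemokine values was not tested. Of 9 neutrophil markers 8 were listed, with summed levels of 845.5 to 942.6 FPKM in control and 782.4 to 1128 FPKM in stimulated cultures. Most of this sum was S100a8 (250.1 to 454.3 FPKM over the 6 libraries) and S100a9 (329.4 to 502.3 FPKM), which monocytes also express. Csf3r (57.5 to 86.5 FPKM) and the granule genes Ltf (23.3 to 34.3 FPKM) and Camp (3.30 to 33.2 FPKM) were present in every library, while the granule genes Mpo and Elane were at 0 in at least 1 library of each group and under 2 FPKM in the rest. Retnlg varied widely, at 9.665, 20.15 and 0 FPKM in control and 0, 3.511 and 28.86 FPKM in stimulated cultures. The 6 stromal markers summed to 155.7 to 169.3 FPKM in control and 103.8 to 118.8 FPKM in stimulated cultures, without overlap. Nearly all of this sum was Col1a1 and Col1a2, the latter at 71.8 to 86.4 and 56.4 to 62.6 FPKM. Col3a1, Pdgfrb, Dcn and Lum reached at most 4.55 FPKM in any library, and each overlapped between the groups. Dcn had the higher mean in stimulated cultures (2.79 FPKM in control and 3.52 FPKM in stimulated). The 9 cartilage markers summed to at most 4.22 FPKM, and 4 of them (Col9a1, Matn1, Matn3 and Prg4) were at 0 in every library, the stimulated ones included.

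Of the 8 chemokines, Cxcl16 was by far the most abundant, at rank 360 of 24394 symbols by mean FPKM. Cxcl2 followed at rank 4146, Cxcl3 at 6426, Cxcl12 at 8662, Cxcl10 at 9440 and Cxcl1 at 11737, while Cxcl9 and Cxcl14 were listed at 0 in all 6 libraries. Cxcl2, Cxcl3 and Cxcl16 were each higher in all 3 stimulated cultures than in any control. By contrast, Cxcl10 and Cxcl12 overlapped between the groups.

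**Figure D1:**
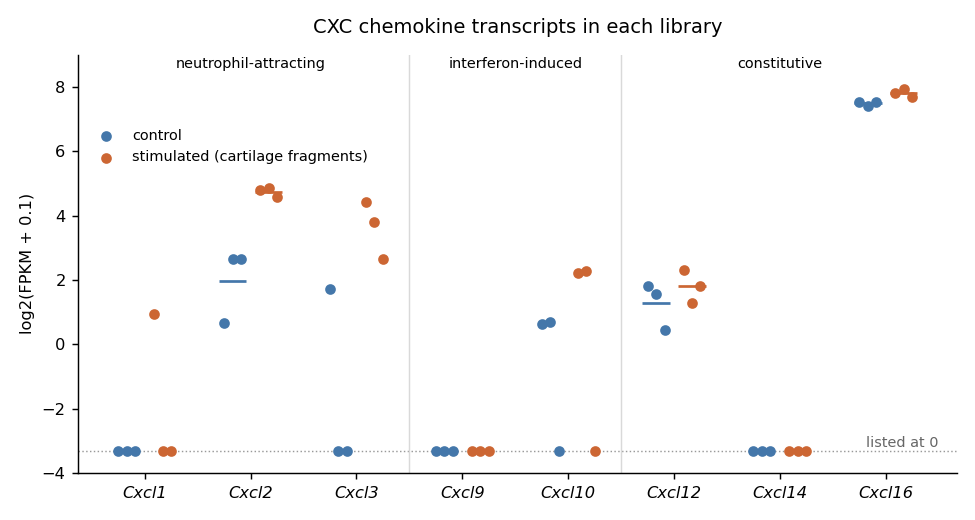
Level of each chemokine in each library, as log2(FPKM + 0.1), with 1 point per library, grouped by role. A bar marks the group mean for genes above 0 in all 6 libraries, and the dotted line marks genes listed at 0. Cxcl16 stands above all others in both groups, and the points of Cxcl2, Cxcl3 and Cxcl16 do not overlap between the groups.

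The groups were compared with limma on log2(FPKM + 0.1) over the 10396 genes whose mean reached 1 FPKM, with p-values adjusted after Benjamini and Hochberg, and 5 of the 8 chemokines entered (Cxcl2, Cxcl3, Cxcl10, Cxcl12 and Cxcl16). Of these 5, 0 passed an adjusted p of 0.05, where 0.394% of all tested genes did (0.317% higher and 0.077% lower). At an unadjusted p under 0.05, 3 of the 5 passed, beside 9.32% of all tested genes. With a control mean of 0.984 FPKM, Cxcl10 reached the filter of 1 FPKM only through the stimulated cultures. Groups did not overlap for 3 of the 5 tested chemokines, all higher with fragments, beside 9.04% of tested genes in that direction. The same test on depth-scaled fragments, the fragments of a gene over those of the library, called Cxcl2 and Cxcl16 higher, where 2.38% of tested genes were called (1.54% higher and 0.837% lower). The cause of this difference between the 2 scales was not tested.

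Cxcl2, also called Mip2, had the clearest difference among the neutrophil attractants. Its level was 1.48, 6.12 and 6.18 FPKM in the control cultures and 27.6, 28.8 and 23.9 FPKM in the stimulated cultures. The lowest stimulated culture thus stood well above the highest control. The group means were 4.59 ± 2.70 (SD, n = 3) and 26.8 ± 2.55 FPKM (n = 3). The log2 fold change was 2.76 (SE 0.502, 95% interval 1.60 to 3.92, adjusted p = 0.0938 in limma). On depth-scaled fragments the log2 fold change was 2.75 with an adjusted p of 0.00136 in limma, and over the 17 alternatives the adjusted p ranged from 0.00136 to 0.332. These levels rest on few molecules, an estimated 1, 4.04 and 4 fragments in control and 17.98, 17.97 and 14.55 in stimulated cultures. The ratio of the pooled fragments, 9 against 51 and corrected for depth, was 5.93 (exact 95% interval 2.89 to 13.7). Such intervals cover counting error only. Control 1 held the lowest value, and without it the log2 fold change was 2.10 with an adjusted p of 0.0136 in limma.

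Cxcl3, a close relative with the same receptor, was listed at 3.20, 0 and 0 FPKM in control and at 21.6, 13.8 and 6.24 FPKM in stimulated cultures. All stimulated values lay above all control values, but they spread over more than those of Cxcl2. The log2 fold change was 5.28 (SE 1.32, adjusted p = 0.20 in limma) and depends on the constant added to FPKM, being 3.06 with 1 and 7.49 with 0.01 added. On fragments, 2 in the controls stood against 24 in the stimulated cultures, a depth-corrected ratio of 12.6 (exact 95% interval 3.12 to 110). A library at 0 allowed up to 4.91 FPKM in control 2 and 5.01 FPKM in control 3, the level of 3 fragments. The lowest stimulated culture, at 6.24 FPKM, itself rested on an estimated 3.51 fragments. At this depth it could not be told apart from these controls by counting. Without control 1, the only control with Cxcl3 fragments, the adjusted p was 0.0186 in limma. Over the alternatives it ranged from 0.0186 to 0.536.

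Cxcl1 (KC), the third of these ligands, was at 1.81 FPKM in stimulated culture 1, which is 1 fragment, and at 0 in the other 5 libraries. These could have held up to between 5.25 and 5.83 FPKM, so no difference in Cxcl1 was detectable at this depth and no fold is given.

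Cxcl2 and Cxcl3 share sequence, and reads could be split between them. Their GENCODE transcripts, which differ slightly in length from the reference transcripts counted here, were 76.5% identical over the aligned bases. They shared a run of 110 bases, longer than a read of 100. By contrast, the longest run that Cxcl1 shared with either was 23 bases. In stimulated culture 3 the estimates were 14.55 fragments for Cxcl2 and 3.51 for Cxcl3, which are not whole but sum to 18.06. The sums over both genes were 3, 4.04 and 4 fragments in control and 30.96, 25.94 and 18.06 in stimulated cultures. The sum of the pair is free of the split, and its groups did not overlap either.

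**Figure D2:**
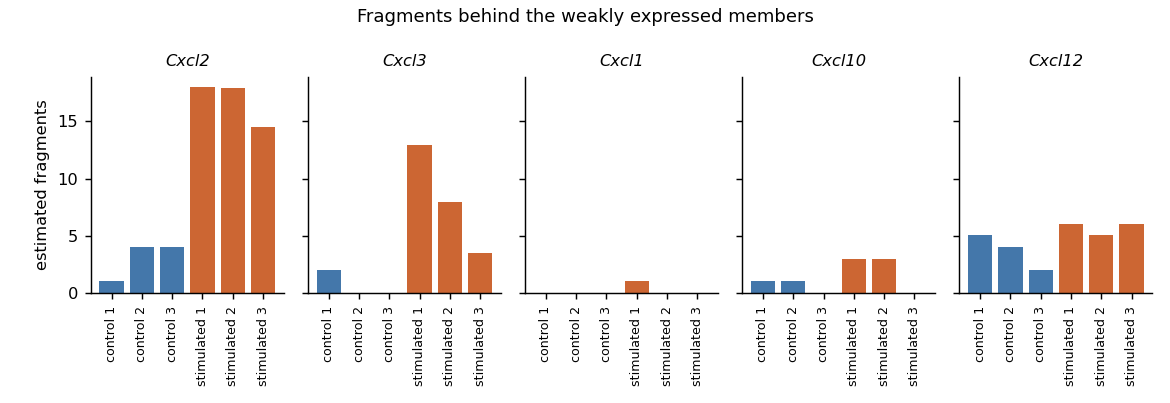
Estimated fragments in each library (bars, starting at 0) for the 5 chemokines with few fragments, control in blue and stimulated in orange. Cxcl2 reaches 17.98 fragments and Cxcl3 12.98 in stimulated cultures, while Cxcl1 rests on 1 fragment and Cxcl10 on at most 3 in a library.

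The interferon-induced ligands showed no difference that the test could call. Cxcl9 was listed at 0 in all 6 libraries, which allowed up to between 1.44 and 1.59 FPKM. Cxcl10 (IP-10) was at 1.45, 1.5 and 0 FPKM in control and at 4.52, 4.71 and 0 FPKM in stimulated cultures. Each group thus had 1 library at 0, which allowed up to 4.55 FPKM in control 3 and 4.84 FPKM in stimulated culture 3. The log2 fold change was 1.05 (SE 1.83, 95% interval -3.15 to 5.26, adjusted p = 0.89 in limma), and it was -0.27 without control 3. In fragments, 2 stood against 6, a ratio of 3.14 (exact 95% interval 0.561 to 31.8). The interval of this ratio holds both 1 and the 5.93 of Cxcl2, so at this depth Cxcl10 could not be told apart from either.

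Among the constitutive ligands, Cxcl16 was at 184.2, 169.1 and 185.2 FPKM in control and at 227.1, 244.3 and 207.6 FPKM in stimulated cultures. The stimulated cultures all lay above the controls, by a modest margin. The means were 179.5 ± 8.99 (SD, n = 3) and 226.4 ± 18.4 FPKM (n = 3), and the log2 fold change was 0.33 (SE 0.0878, 95% interval 0.13 to 0.53, adjusted p = 0.231 in limma). On depth-scaled fragments it was 0.35, with an adjusted p of 0.0054 in limma, and over the 17 alternatives the adjusted p ranged from 0.0054 to 0.797. With 795 fragments in control and 970 in stimulated cultures, the ratio was 1.28 (exact 95% interval 1.16 to 1.40), so counting error was small here.

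The level of Cxcl16 depends on which transcripts are counted. Beside the reference transcript, Cufflinks assembled between 1 and 3 further transcripts at the locus in each library. The reference transcript held 74.3, 104.6 and 0 FPKM in control and 138.9, 73.2 and 120.1 FPKM in stimulated cultures. Its share was 40.3%, 61.9% and 0% in control and 61.1%, 29.9% and 57.8% in stimulated cultures, so the division varied within both groups while the sum did not vary as much. With the reference transcript alone, control 3 was at 0 and the log2 fold change was 3.54, with an adjusted p of 0.797 in limma. The sum over the locus is used here. The locus shares 363 bases with the start of the neighbor Zmynd15 on the reference annotation, and Zmynd15 was at 18.7 FPKM in control 2 and at 0 in the other 5 libraries.

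**Figure D3:**
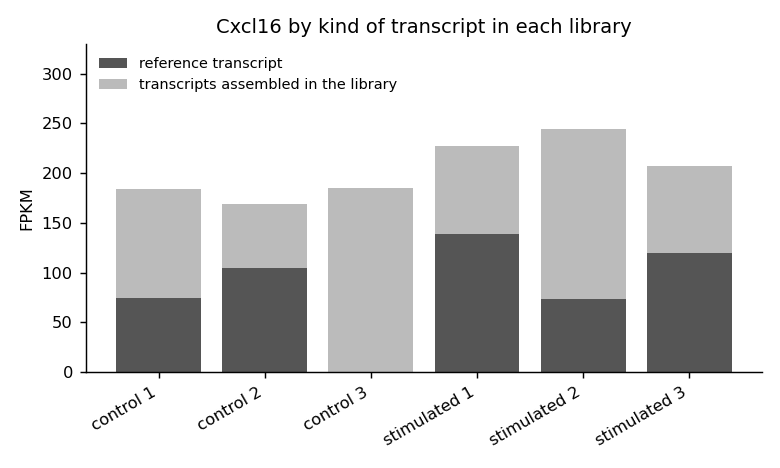
FPKM of Cxcl16 in each library, stacked from the reference transcript (dark) and the transcripts assembled in that library (light). The full bars are 184.2, 169.1 and 185.2 FPKM in control and 227.1, 244.3 and 207.6 FPKM in stimulated cultures, while the dark part is at 0 in control 3.

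Cxcl12 (SDF-1) was at 3.43, 2.85 and 1.27 FPKM in control and at 4.82, 2.36 and 3.39 FPKM in stimulated cultures. The groups overlapped, and the log2 fold change was 0.52 (SE 0.484, 95% interval -0.59 to 1.64, adjusted p = 0.786 in limma). The fragments, 11 in control and 17 in stimulated cultures, gave a ratio of 1.62 (exact 95% interval 0.714 to 3.82). They fell on different transcripts from library to library. In stimulated culture 1 all lay on NM_021704, in stimulated culture 2 all on NM_013655, and in stimulated culture 3 on NM_021704 and NM_001012477. Stromal cells are the usual source of Cxcl12, and the stromal marker Col1a1 was at 74.4 to 87.4 FPKM in control and at 43.6 to 50.7 FPKM in stimulated cultures (log2 fold change -0.72, adjusted p = 0.0798 in limma). Of the 4 stromal markers tested, 3 had a log2 fold change below 0 and 1, Dcn, had one above 0. The part of such cells in the Cxcl12 values was not tested. In bulk RNA, fewer cells of a type and less RNA per cell cannot be told apart. Cxcl14 was listed at 0 in all 6 libraries, which allowed up to between 2.39 and 2.66 FPKM.

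Summed by role, Cxcl1, Cxcl2 and Cxcl3 came to 4.68, 6.12 and 6.18 FPKM in control and to 51.0, 42.6 and 30.2 FPKM in stimulated cultures. Their share of the FPKM of all 8 chemokines was 3.01% ± 0.526 (SD, n = 3) in control and 14.9% ± 2.65 (n = 3) in stimulated cultures, without overlap. The direction turned on reference transcripts only (31.3% in control and 26.6% in stimulated cultures), where Cxcl16 is at 0 in control 3, and on fragments, which are not scaled to length, the shares were 1.35% and 7.03%. The constitutive ligands, nearly all Cxcl16, held 96.5% ± 0.609 and 84.0% ± 3.41. All 8 together came to 188.6 ± 7.86 FPKM in control and to 274.2 ± 28.8 FPKM in stimulated cultures (SD, n = 3 each). These sums follow from genes chosen for their roles and are given with no test. Per 100 FPKM of Cxcl16, the cultures held 0.804, 3.62 and 3.34 FPKM of Cxcl2 in control and 12.2, 11.8 and 11.5 FPKM in stimulated cultures. The log2 ratio of Cxcl2 to Cxcl16 was -5.55 ± 1.22 in control and -3.08 ± 0.0396 in stimulated cultures, a difference of 2.47 (SD, n = 3 each). This pair was chosen with its values known, and the difference is given with no test.

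**Figure D4:**
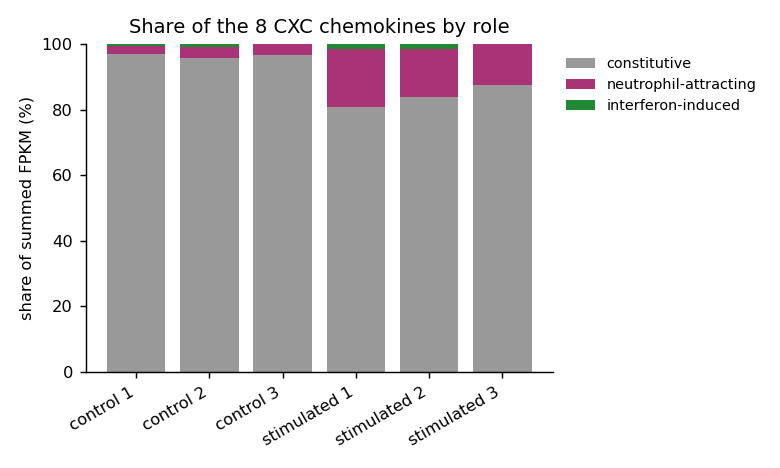
Share of the summed FPKM of the 8 chemokines held by each role in each library, stacked to 100%. The neutrophil-attracting part runs from 2.41% to 3.41% in control and from 12.5% to 17.8% in stimulated cultures.

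Of 7 other CXC ligands, 5 were listed at 0 everywhere, and Pf4 (Cxcl4), the platelet factor that macrophages also make, was the only one tested. Pf4 was at 94.9, 88.4 and 109.7 FPKM in control and at 177.6, 118.3 and 227.9 FPKM in stimulated cultures. All stimulated cultures lay above the controls, with a wide spread among them (log2 fold change 0.79, SE 0.219, adjusted p = 0.259 in limma). Pf4 was thus the second CXC ligand of these cultures in level after Cxcl16.

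The receptors of these ligands were followed as well. Of 8 receptors 3 were tested and 0 passed the threshold in limma, also on depth-scaled fragments. At an unadjusted p under 0.05 there was 1, beside 9.32% of all tested genes. Cxcr4, the receptor of Cxcl12, was at 140.7, 147.9 and 138.4 FPKM in control and at 110.3, 112.4 and 129.5 FPKM in stimulated cultures. Its groups did not overlap, with the stimulated ones lower (log2 fold change -0.28, adjusted p = 0.406 in limma), where 6.88% of tested genes were lower without overlap. On reference transcripts only its log2 fold change was 0.85. Cxcr3, the receptor of Cxcl9 and Cxcl10, was at 5.56, 3.82 and 5.80 FPKM in control and at 4.79, 2.00 and 2.06 FPKM in stimulated cultures, which overlapped (log2 fold change -0.85, adjusted p = 0.583 in limma). Cxcr6, the receptor of Cxcl16, was at 0.793 FPKM in control 2 and at 0 elsewhere, and Cxcr2, the receptor of the neutrophil attractants, stayed under 5 FPKM in every library.

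Proteases that release or trim CXC chemokines were tested for 5 of 6 genes, and 0 passed the threshold in limma, with 4 at an unadjusted p under 0.05 and 4 called on depth-scaled fragments (2 in each direction). Over all tested genes the shares were 9.32% unadjusted, and 1.54% higher and 0.837% lower on depth-scaled fragments. Adam17, which sheds membrane proteins, was at 62.7, 60.4 and 59.5 FPKM in control and at 89.4, 74.5 and 82.0 FPKM in stimulated cultures (log2 fold change 0.42, adjusted p = 0.231 in limma). Mmp9, a gelatinase known to cut neutrophil chemokines, was at 6.13, 8.55 and 15.1 FPKM in control and at 21.7, 30.6 and 24.3 FPKM in stimulated cultures (log2 fold change 1.44, adjusted p = 0.147). Mmp12, a macrophage elastase that inactivates such chemokines, was at 604.2, 593.1 and 681.4 FPKM in control and at 465.2, 474.6 and 503.9 FPKM in stimulated cultures (log2 fold change -0.38, adjusted p = 0.0947). Mmp8, a collagenase, was at 160.2, 170.1 and 132.4 FPKM in control and at 116.5, 118.3 and 129.9 FPKM in stimulated cultures (log2 fold change -0.34, adjusted p = 0.403). None of these 4 genes overlapped between the groups, with Adam17 and Mmp9 higher and Mmp12 and Mmp8 lower with fragments. Over all tested genes 9.04% were higher and 6.88% lower without overlap. Adam10, the remaining tested protease, did overlap, at 56.35, 53.62 and 51.46 FPKM in control and 55.97, 62.85 and 51.42 FPKM in stimulated cultures. Its log2 fold change was 0.07 (adjusted p = 0.889 in limma).

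Genes that NF-κB is known to induce were compared with genes that interferon is known to induce, as the counterparts of the neutrophil-attracting and interferon-induced ligands. Of 14 NF-κB-induced genes 13 were tested, and 1 passed the threshold in limma, Il1b, with 9 at an unadjusted p under 0.05, beside 0.394% and 9.32% of all tested genes. The log2 fold change was above 0 in 11 and below 0 in 2, with a median of 0.65, beside 5238 above and 5158 below and a median of 0.00 over all tested genes. On depth-scaled fragments 6 of them were called higher and 0 lower, beside 1.54% and 0.837% of all tested genes. Il1b, the gene of interleukin-1β, rose from 2.32, 2.39 and 2.42 FPKM in control to 14.4, 15.0 and 15.5 FPKM in stimulated cultures (log2 fold change 2.60, SE 0.219, adjusted p = 0.00237 in limma), a fold close in size to that of Cxcl2. Il1b rested on even fewer fragments than Cxcl2, an estimated 2.01, 2.02 and 2.01 in control and 12.02, 12.01 and 12.06 in stimulated cultures. Its SE depended on the scale, being 0.219 on FPKM and 0.514 on depth-scaled fragments (adjusted p = 0.00303 in limma). No counting interval was computed for Il1b. Il1a, at 0.735, 0 and 1.54 FPKM in control and 5.32, 2.38 and 2.45 FPKM in stimulated cultures, did not overlap (adjusted p = 0.519 in limma). With a control mean of 0.757 FPKM, Il1a reached the filter of 1 FPKM only through the stimulated cultures. Nfkbia, the inhibitor of NF-κB, had a log2 fold change of 0.59 (adjusted p = 0.389), and Zfp36, which destabilizes cytokine mRNA, one of -0.05 (adjusted p = 0.938), both with overlapping groups. Of the 13 tested, 8 were higher and 1 lower without overlap, beside 9.04% and 6.88% of all tested genes. The lower was Ptgs2, at 4.408 to 5.174 FPKM in control and 3.301 to 4.26 FPKM in stimulated cultures (log2 fold change -0.4). Among the higher, Tnf was at 12.57 to 14.07 FPKM in control and 26.98 to 64 FPKM in stimulated cultures (log2 fold change 1.76, adjusted p = 0.0753 in limma).

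Of 15 interferon-induced genes 14 were tested and 0 passed the threshold in limma, also on depth-scaled fragments, with 1 at an unadjusted p under 0.05 on either scale. Of all 10396 tested genes, 969 (9.32%) were at an unadjusted p under 0.05 on FPKM and 1201 on depth-scaled fragments. All 14 log2 fold changes were above 0, with a median of 0.97, and 4 of the 14 were higher without overlap. Over all tested genes 5238 were above and 5158 below 0, and 9.04% were higher without overlap. Mx1, Oasl1 and Cmpk2 reached the filter of 1 FPKM only through the stimulated cultures, with control means of 0.700, 0.698 and 0.754 FPKM. Mx1 and Oasl1 are among the 4 without overlap. The counts and the median of this list thus rest in part on genes let in by their stimulated values. The genes with the largest values were weakly expressed. Isg15, a ubiquitin-like protein, was at 0, 4.89 and 14.8 FPKM in control and at 14.7, 12.8 and 10.5 FPKM in stimulated cultures, which overlapped (log2 fold change 2.70, SE 1.94). Oasl1 was at 0.677, 0 and 1.42 FPKM in control and at 2.80, 1.46 and 2.26 FPKM in stimulated cultures (log2 fold change 2.17, SE 1.16). The most abundant of the list, the transcription factor Irf1 and Cd274 (PD-L1), had log2 fold changes of 0.04 (SE 0.150) and 0.27 (SE 0.152).

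**Figure D5:**
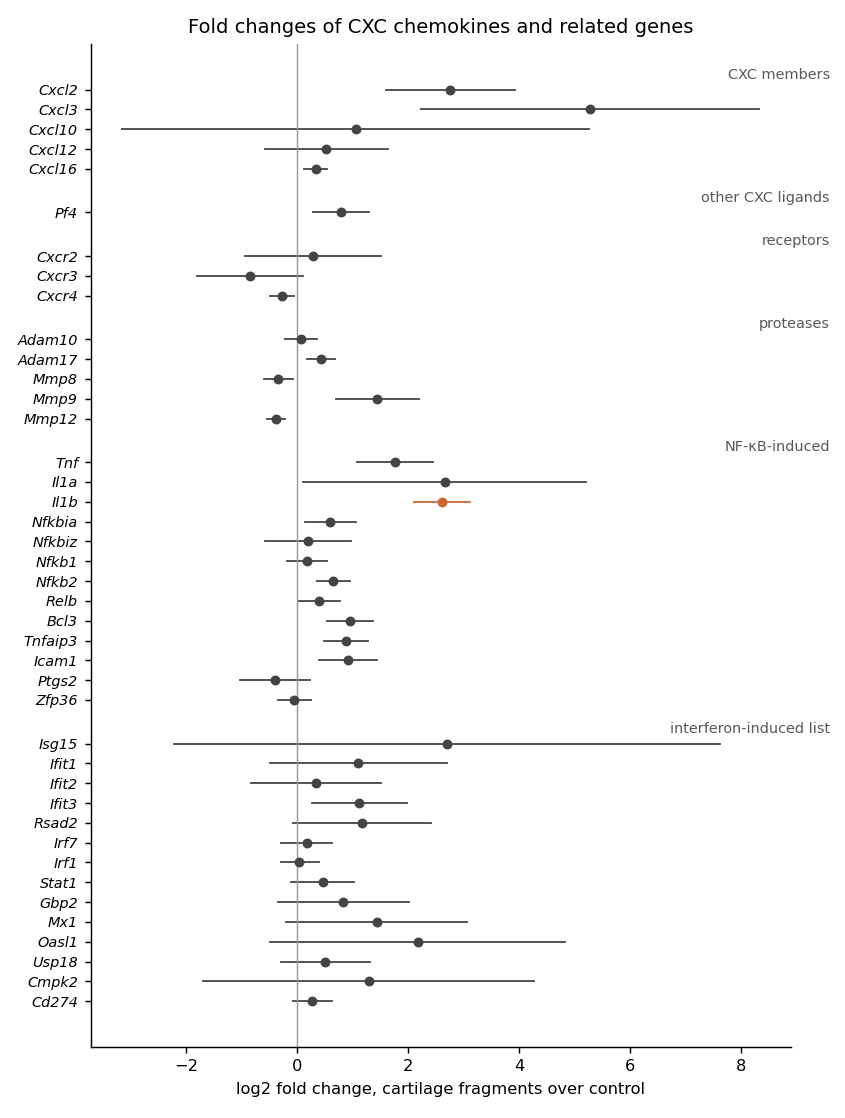
Log2 fold change of stimulated over control on the log2(FPKM + 0.1) scale (points) with its unadjusted 95% interval (lines) for the tested CXC chemokines and for the listed ligands, receptors, proteases, NF-κB-induced and interferon-induced genes. Orange marks an adjusted p under 0.05, which Il1b alone has, and Cxcl2 at 2.76 stands beside Il1b at 2.60.

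The genes most like each leading chemokine over the 6 libraries were found by Pearson correlation of log2(FPKM + 0.1) among tested genes of at least 10 FPKM. These are descriptions over 6 libraries in 2 groups, chosen as the highest of 5537 genes for Cxcl2 and Cxcl16 and of 5538 for Cxcl10. For Cxcl2 they were the myosin light chain Myl6 (r = 0.988), Igsf6 (0.983) and the glutathione transferase Gsta3 (0.979), each lowest in control 1 and higher in every stimulated culture than in any control. For Cxcl16 they were Manf (0.992), Rras (0.990) and the glucose transporter Slc2a1 (0.985), each highest in stimulated culture 2 and lowest in control 2. For Cxcl10 they were Glrx5 (0.991), Mrps24 (0.989) and the respiratory chain subunit Cox8a (0.987), each lowest in control 3 and stimulated culture 3, the 2 libraries in which Cxcl10 was at 0.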

How the data were processed

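RNA-seq values of 3 control and 3 stimulated BMM cultures were used, 1 file per sample. Per the labels and the methods, the authors prepared stranded mRNA libraries and sequenced them as paired-end reads of 100 bp. TopHat and Bowtie were used for alignment to mm10 and Cufflinks for abundance, library by library. The methods also name TMM normalization, and the deposited FPKM do not show whether it had been applied to them. The sources also name Cuffdiff, whose output was not used here. The deposited FPKM are per transcript, and the deposited coverage is the read depth (signal) beside each FPKM. Whether strand was used in the counting is not given in the sources used here.

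FPKM were summed per gene symbol. A transcript assembled in a library alone has no symbol in the file and was given that of the reference transcripts of its Cufflinks gene. Fragments were estimated from coverage, transcript length, read length and a fragment length of 212.0 to 221.5 bases, chosen per library. The length chosen was the one that brought the most low values within 0.1 of a whole number. The share reached, 95.8% to 96.7%, is therefore no independent check. Tests used limma 3.58.1 (R 4.3.3) with lmFit and a trended, robust eBayes on log2(FPKM + 0.1). Genes under a mean of 1 FPKM were left out, tests were two-sided, and p-values were adjusted after Benjamini and Hochberg, with a threshold of 0.05. The pseudocount moves the fold change of low genes on this scale, most of all for genes at 0 in a library. The procedure was tested on simulated data that held counting noise only, without further spread between cultures. Depth, between 699192 and 776322 fragments per library, limits the precision of weakly expressed genes. A count of 0 was taken to allow up to 3 fragments.

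The chemokines, the gene lists and the tests were chosen with earlier results of these data known. All 8 chemokines are named. From each list the genes past the threshold, the largest fold changes and the highest levels are named, up to 4, and from the marker lists those whose groups did not overlap. Cxcr2 and Cxcr6 were added as receptors of the chemokines, and S100a8, S100a9, Csf3r, Ltf, Camp, Mpo, Elane, Col9a1, Matn1, Matn3 and Prg4 as defining markers of other cells, with their values known. Adam10, Tnf, Ptgs2, Retnlg, Mx1, Cmpk2 and the remaining macrophage and stromal markers were likewise added with their values known. The alternatives tried were a pseudocount of 1 or 0.01, no filter or one of 5 FPKM, size factors, quantile normalization, no trend and robust moderation, the replicate block, transcripts of status OK only, reference transcripts only, depth-scaled fragments in place of FPKM, and each library left out in turn.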

Additional observations from a re-analysis of the deposited data

How the results depend on the processing

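The deposited values of 7 of the 8 chemokines rested on few fragments (9 against 51 for Cxcl2), which limits their precision. Against 33 genes higher and 8 lower in the FPKM fit, depth-scaled fragments gave 160 and 87, reference transcripts only 15 and 4, no trend and robust moderation 14 and 5, and quantile normalization 5 lower. The number of chemokines past the threshold was 0 except on depth-scaled fragments (2, Cxcl2 and Cxcl16) and without control replicate 1 (2, Cxcl2 and Cxcl3). Depth-scaled fragments also called 4 proteases in place of 0 and 6 NF-κB-induced genes in place of 1. The cause was not tested. With the replicate number as a block 17 genes were higher and 1 lower, and Cxcl2 had an adjusted p of 0.136 in limma. The numbers are no known pairing, since same-numbered libraries did not deviate together (r = -0.012, -0.021 and -0.016). Leaving out each library in turn gave 12 to 26 higher genes, lowest without stimulated replicate 1 (16 without stimulated replicate 2), and 0 to 6 lower genes, 0 without stimulated replicate 1, 3 without control replicate 3 and 4 without control replicate 1, control replicate 2 or stimulated replicate 2. It gave 0 to 2 chemokines and 1 to 2 NF-κB-induced genes, 2 without stimulated replicate 3. The mean share of Cxcl1, Cxcl2 and Cxcl3 was 31.3% in control and 26.6% in stimulated cultures on reference transcripts only, where Cxcl16 is at 0 in control 3, and 1.35% and 7.03% on fragments, which are not scaled to length.

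Directions turned for some named genes, none past the threshold. Over the libraries left out in turn the log2 fold change ran from -0.27 to 2.91 for Cxcl10, from -0.12 to 0.09 for Zfp36, from -0.06 to 0.37 for Glrx5, from -0.11 to 0.45 for Mrps24 and from -0.01 to 0.16 for Cox8a, each on the other side of 0 without control replicate 3. It ran from -0.03 to 0.14 for Irf1, below 0 without control replicate 2 or stimulated replicate 1, and was -0.03 for Mrps24 without stimulated replicate 2. On reference transcripts only Cxcr4 came to 0.85 and Gsta3 to -0.21, and with status OK only Igsf6 came to -0.65.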
